A study of Mus musculus with 33 samples.

Results

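Nlrp5 encodes NALP5, also called MATER, a maternal-effect protein that the oocyte makes while it grows and stores for the embryo. It is a core member of the subcortical maternal complex (SCMC), an assembly of oocyte proteins that belongs to the cytoplasmic lattices and is needed for the first cleavages after fertilization. As a germinal vesicle oocyte reaches full size, its chromatin condenses into a ring around the nucleolus, so that a non-surrounded nucleolus (NSN) becomes a surrounded one (SN). RNA synthesis has nearly stopped by then, and RNA levels reflect storage and decay more than synthesis.

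The comparison described here is that of Nlrp5-/- with Nlrp5+/- SN oocytes, the 2 genotypes that came from littermates. It rests on 9 of the 33 single oocytes sequenced, which are Nlrp5-/- oocytes 7 and 31 and Nlrp5+/- oocytes 37, 38, 39, 40, 46, 47 and 55. Members were chosen by the genotype in the sample labels and by the stage that the authors assigned from the expression of marker genes. All 9 came from 3-week-old females of the C57BL6/Babr strain, in which Cas9 and a guide RNA had been electroporated into zygotes to make a short frameshifting deletion in Nlrp5, and the Nlrp5+/- oocytes carry 1 copy of the same allele. Oocytes were freed from ovaries by collagenase digestion, the polyadenylated RNA of each cell was separated from its DNA and amplified, and reads were counted on genes. The 6 Nlrp5+/+ SN oocytes, usually from the originating colony, the 4 Nlrp5-/- NSN oocytes and the 9 Nlrp5+/- oocytes outside the SN stage are set beside them where they bear on a value. The sample labels name no mouse, so the oocytes of a genotype count as 1 sample, no test between genotypes was made, and ranges and SDs describe the spread between cells.

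Counts on genes summed to 5746373 in oocyte 7, 10621860 in oocyte 31 and between 5730251 and 9973348 in the Nlrp5+/- oocytes, and 16663 to 17655 genes had a count. All 15 oocyte markers had counts in each of the 9 oocytes. The staging score, which is the mean log2 normalized count of the NSN markers less that of the SN markers, was -4.21 in oocyte 7 and -3.84 in oocyte 31, inside the Nlrp5+/- range of -5.12 to -3.61, whereas the NSN Nlrp5-/- oocytes had -3.13 to -1.99. The stage had been assigned with these genes, so the score describes the groups and does not check them. Marker genes of granulosa cells, the somatic cells around the oocyte, summed to 471 CPM (counts scaled to the library total) in oocyte 7, 387 in oocyte 31 and 341 to 445 in the Nlrp5+/- oocytes. Limited to the 14 granulosa markers under 50 normalized counts in Nlrp5+/- oocytes, the sum was 113 CPM in oocyte 7, 15.2 in oocyte 31 and 4.66 to 27.4 in the Nlrp5+/- oocytes, and granulosa markers without a count numbered 3, 4 and 2 to 8. Each first index sequence of the libraries occurred with 1 genotype only, and the labels do not say what an index stands for, so a difference between index sets and one between genotypes cannot be told apart.

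Nlrp5 itself was read first. The gene lies at chr7:23385889-23441922 on the plus strand of GRCm38. Its normalized count was 1915 in oocyte 7 and 2071 in oocyte 31, and in the 7 Nlrp5+/- oocytes it had a lowest value of 4668, a median of 5741 and a highest of 8868. Both Nlrp5-/- oocytes were thus below every Nlrp5+/- oocyte, by 3.30-fold in the group means, a log2 ratio of -1.72 against a Nlrp5+/- mean of 6586 ± 1571 (SD, n = 7 oocytes). The 6 Nlrp5+/+ SN oocytes had 9175 to 13520, above all 7 Nlrp5+/- oocytes, so that the 3 genotypes did not overlap. In oocytes outside the SN stage the order of the Nlrp5-/- and Nlrp5+/- oocytes was the same, with 1238 to 2346 in the 4 Nlrp5-/- and 4711 to 12345 in the 9 Nlrp5+/-. Against each index set of Nlrp5+/- oocytes taken alone, the log2 ratio was -1.78 (oocytes 37 to 40), -1.38 (46 and 47) and -2.06 (55). The counts hold no sequence, so they do not show whether the RNA left in Nlrp5-/- oocytes carried the deletion.

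The partners of NALP5 were measured at levels within or near the Nlrp5+/- range. Of 9 SCMC core genes, Nlrp5 was the only one at least 2-fold apart with both Nlrp5-/- oocytes outside the range of the 7 Nlrp5+/- oocytes, and the median log2 ratio of the 9 was -0.01. Ooep, which encodes an RNA-binding-domain protein of the complex, had a log2 ratio of -0.01. Tle6, a co-repressor relative that binds NALP5 and OOEP, had 0.27, and Khdc3, which encodes FILIA, had 0.36. Padi6, an arginine deiminase family member of the lattices, had 0.21, and Zbed3 had 0.28. Among 10 other Nlrp genes of the oocyte no member met both conditions, and their median was -0.42, moving to -0.09 once the trend with GC content described below had been removed.

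Over the whole transcriptome, 13162 genes averaged 10 or more normalized counts across the 9 oocytes. Of these, 188 genes (1.43%) were at least 2-fold higher, with both Nlrp5-/- oocytes above all 7 Nlrp5+/- oocytes, and 301 (2.29%) were at least 2-fold lower, with both below. Without regard to the ranges, 415 (3.15%) and 718 (5.46%) differed by at least 2-fold, and without regard to the fold, 680 (5.17%) and 766 (5.82%) did not overlap. With oocyte 31 alone for Nlrp5-/-, 442 genes were higher and 563 lower, and with oocyte 7 alone 710 and 1434. The median log2 ratio over all genes was 0.00 and the median of its absolute value 0.33. Higher and lower are used below for genes that met both conditions, and other genes are given with their values only.

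**Figure D1:**
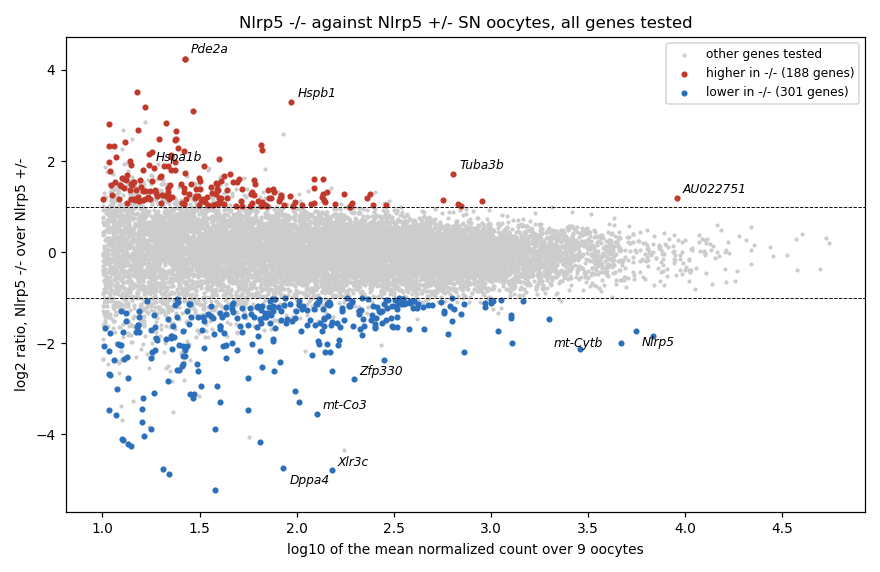
Log2 ratio of the Nlrp5-/- to the Nlrp5+/- mean (2 and 7 SN oocytes, 1 added to each mean) against log10 of the mean normalized count over the 9 oocytes, 1 point per gene. The 188 genes counted as higher are red, the 301 counted as lower are blue, the dashed lines mark a 2-fold difference, and the labelled genes are described in the text.

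Oocyte 7 differed from the other 8 in a general property that touches both directions. The transcripts of the 188 higher genes had a median GC content of 52.9% and those of the 301 lower genes 43.3%, against 48.9% over all genes tested. Across genes, the deviation from the Nlrp5+/- mean correlated with transcript GC content at 0.48 in oocyte 7, 0.13 in oocyte 31 and -0.35 (oocyte 55) to 0.27 (oocyte 40) in the Nlrp5+/- oocytes. From the lowest to the highest decile of GC content the median deviation went from -0.83 to 0.59 in oocyte 7 and from -0.12 to 0.14 in oocyte 31. With the GC trend of each oocyte removed, an alternative chosen after the data had been seen, 168 genes (1.28%) were higher and 235 (1.79%) lower. These included 111 (59.0%) of the 188 and 202 (67.1%) of the 301, and all genes of both sets kept their sign. The part of GC content in the differences was not tested otherwise.

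**Figure D2:**
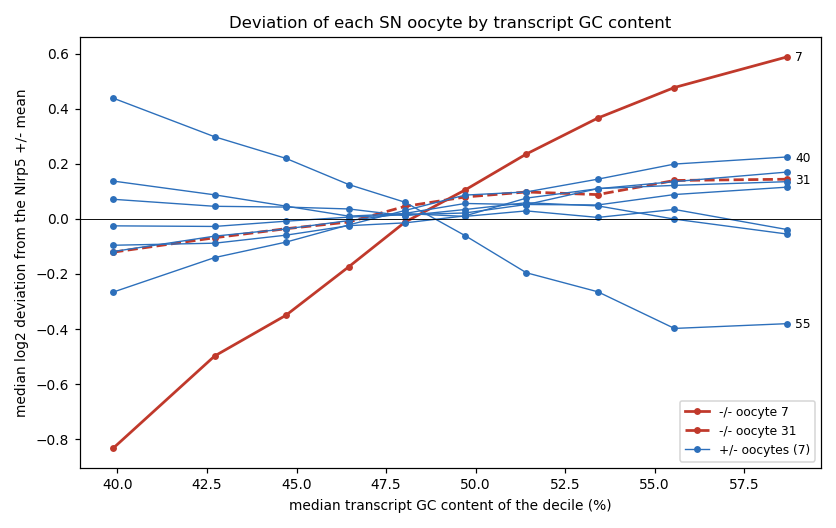
Median log2 deviation from the Nlrp5+/- mean (vertical axis) in each decile of transcript GC content (horizontal axis, median percent of the decile), with 1 line per SN oocyte. The solid red line of oocyte 7 runs from -0.83 to 0.59, the dashed red line of oocyte 31 stays among the blue Nlrp5+/- lines, and oocyte 55 slopes the other way.

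The mitochondrially encoded genes made up the list with the lowest median. These 13 genes encode the protein subunits of the respiratory chain that are made inside mitochondria. Of the 13, 9 (69.2%) were lower, against 2.29% of all genes, none was higher, and the median log2 ratio was -2.13. mt-Cytb, the cytochrome b subunit of complex III, had 1444 and 1382 normalized counts in oocytes 7 and 31, and a lowest value of 4265, a median of 5828 and a highest of 8176 in the Nlrp5+/- oocytes. The 2 genotypes did not overlap, and the log2 ratio was -1.99. mt-Co1, a catalytic subunit of complex IV, had 1510 and 3056 against 6174 to 11236, with a log2 ratio of -1.84. The complex I subunits mt-Nd1 (-2.13), mt-Nd2 (-2.19), mt-Nd4 (-1.74), mt-Nd4l (-2.46), mt-Nd5 (-1.47) and mt-Nd6 (-1.54) and the complex IV subunit mt-Co3 (-3.55) were also lower, on the log2 scale.

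The remaining 4 mitochondrial genes overlapped between genotypes. For mt-Atp6, mt-Atp8 and mt-Co2 the Nlrp5+/- oocyte at or below a Nlrp5-/- oocyte was oocyte 55, and for mt-Nd3 oocytes 40 and 47 lay below oocyte 31. mt-Atp6, a subunit of ATP synthase, had 6.14 and 13.9 normalized counts against 11.2 to 410, and mt-Co2 had 6.14 and 0.663 against 2.48 to 179. mt-Atp8 had 0 and 3.32 against 0 to 59.3, and mt-Nd3 had 0 and 20.6 against 16.9 to 76.4. All 4 had log2 ratios below 0, from -4.34 to -1.77.

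Summed, the mitochondrially encoded genes took 0.0667% of the counts in oocyte 7 (95% Wilson interval 0.0646 to 0.0689) and 0.104% in oocyte 31 (0.102 to 0.106), against 0.243% to 0.420% in the Nlrp5+/- oocytes with a median of 0.295%. The intervals cover counting error only, since amplified reads are not independent molecules. Among the Nlrp5+/+ SN oocytes the share ranged from 0.101% in oocyte 80 to 0.374%, so a low share was also seen in 1 oocyte of that genotype. The NSN Nlrp5-/- oocytes had 0.152% to 0.332% and the other Nlrp5+/- oocytes 0.140% to 0.618%, ranges that overlapped, and the list's median log2 ratio between them was -0.15 with 0 genes lower. These genes have a low median transcript GC content of 37.1%. With the GC trend removed, 7 of 13 were lower and the median log2 ratio was -1.62. In oocyte 31, whose relation to GC content lay within the Nlrp5+/- range, the median over the list was -1.68 when it stood alone for Nlrp5-/-, against -3.35 for oocyte 7 alone. Against each index set taken alone, the list's median was -1.96, -2.33 and -1.80. Over all 33 oocytes the share was lower where the relation to GC content was more positive, with a Pearson correlation of -0.63, and -0.59 over 31 oocytes without the 2 SN Nlrp5-/- oocytes. The points are single libraries that share index sets, and the part of this library property in the difference was not tested otherwise.

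**Figure D3:**
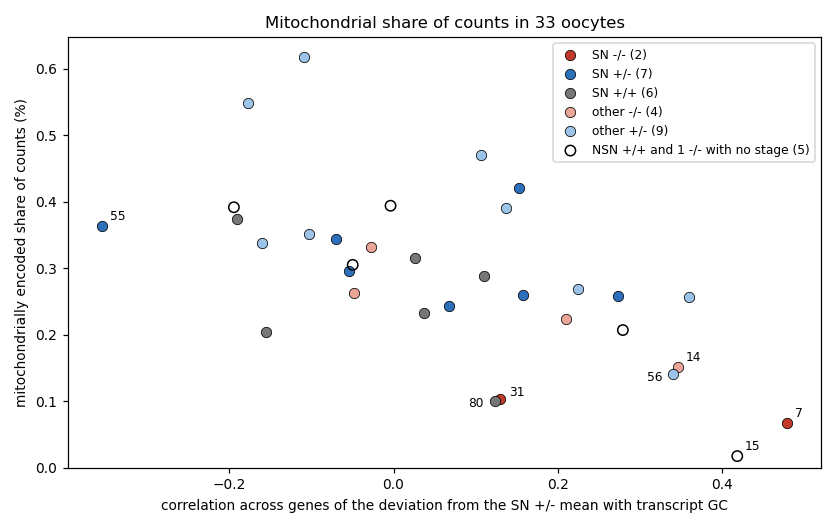
Share of counts on the 13 mitochondrially encoded genes (vertical axis, percent) against the correlation of each oocyte's deviation from the SN Nlrp5+/- mean with transcript GC content (horizontal axis), for 33 oocytes coloured by genotype and stage. Oocytes 7 and 31 have 0.0667% and 0.104%, close to Nlrp5+/+ oocyte 80 at 0.101% and above Nlrp5-/- oocyte 15 at 0.0175%.

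Nuclear genes of mitochondria had medians nearer to 0. None of 78 nuclear subunits of oxidative phosphorylation met both conditions, and their median log2 ratio was 0.17. Of 24 genes for mitochondrial dynamics and maintenance, 2 (8.33%) were lower, against 2.29% of all genes, none was higher, 19 had a log2 ratio below 0, and the median was -0.28. Sco1, a copper chaperone of complex IV assembly, had 0 and 4.64 normalized counts in oocytes 7 and 31 against a lowest value of 23.6, a median of 52.8 and a highest of 75.2. Polg2, the accessory subunit of the mitochondrial DNA polymerase, had 0 and 4.64 against 8.49 to 31.8, but with all stages together its log2 ratio was 0.30. Tfam, which packages mitochondrial DNA, had 69.98 and 135 against 85.9 to 309 and overlapped.

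The next lowest median of a list, -1.21, was that of the Xlr genes on the X chromosome. They belong to a multicopy family related to the synaptonemal complex protein SYCP3. That list of 11 also took in Slx4 and Slx4ip by their names, which are no Xlr genes and had log2 ratios near 0. With oocyte 7 alone for Nlrp5-/- its median was -1.92. Of the 9 Xlr3, Xlr4 and Xlr5 genes in it, 6 were lower, against 2.29% of all genes, none was higher, and the median log2 ratio was -2.04. Removal of the GC trend left 4 genes of the list of 11 lower, with a median of -1.04. Xlr3c had 7.37 and 4.64 normalized counts in the Nlrp5-/- oocytes against a lowest value of 52.7, a median of 169 and a highest of 472, with a log2 ratio of -4.79. Xlr5c had 11.1 and 13.3 against 52.8 to 289, with a ratio of -3.30. Both oocytes lay below every Nlrp5+/- oocyte in both genes. Xlr5a (-2.95), Xlr5b (-3.21), Xlr4a (-1.18) and Xlr4c (-1.10) were lower as well, on the log2 scale, whereas Xlr3a (-0.62), Xlr3b (-2.04) and Xlr4b (-1.21) overlapped.

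Copies of this family are alike enough that reads may be split or exchanged between them, so values of single members are uncertain. The sum over Xlr3, Xlr4 and Xlr5 genes was 665 normalized counts in oocyte 7 and 1791 in oocyte 31, and in the Nlrp5+/- oocytes it had a lowest value of 1832, a median of 2651 and a highest of 4236. Oocyte 31 was thus just under the lowest Nlrp5+/- oocyte. The NSN Nlrp5-/- oocytes had sums of 937 to 2641 and the Nlrp5+/- oocytes outside the SN stage 1197.5 to 3546, ranges that overlapped. Outside the SN stage Xlr5c had a log2 ratio of -3.03, Xlr3c one of 1.20, and Xlr5a and Xlr5b were lower there as well.

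**Figure D4:**
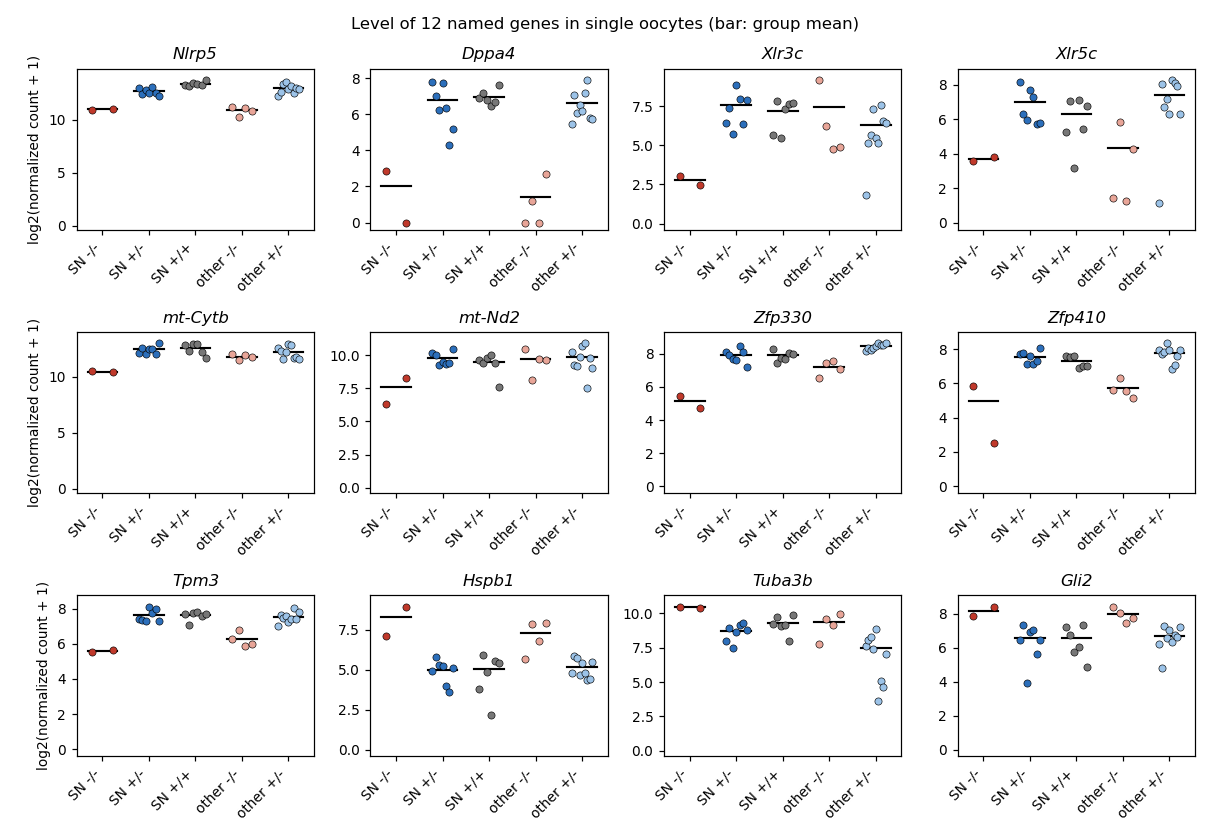
Level of 12 named genes, as log2 of the normalized count plus 1 (vertical axis), in single oocytes of 5 groups (horizontal axis), where other means outside the SN stage and each bar is the group mean. For Nlrp5, Dppa4, Xlr3c, Xlr5c, mt-Cytb, mt-Nd2, Zfp330, Zfp410 and Tpm3 all Nlrp5-/- SN oocytes lie below all Nlrp5+/- SN oocytes. For Hspb1, Tuba3b and Gli2 they lie above.

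Dppa4 was the 1 lower gene of 15 (6.67%, against 2.29% of all genes) in the zygotic genome activation list. It encodes a chromatin protein that, with its partner DPPA2, switches on Dux and other genes of the early embryo. Its normalized count was 6.14 in oocyte 7 and 0 in oocyte 31, and in the Nlrp5+/- oocytes it had a lowest value of 18.3, a median of 79.1 and a highest of 216. The log2 ratio was -4.75, and -4.77 with the GC trend removed. The Nlrp5+/+ SN oocytes had 86.1 to 195. Outside the SN stage the 4 Nlrp5-/- oocytes had 0 to 5.44 and the 9 Nlrp5+/- oocytes 42.1 to 237, so that the ranges did not overlap there either. Oocyte 15, a Nlrp5-/- oocyte with no stage that is left out of these 4, had 37.2, above Nlrp5+/- SN oocytes 46 and 47 at 34.9 and 18.3 and below all 9 other Nlrp5+/- oocytes. Against the 3 index sets the log2 ratio was -4.93, -2.76 and -5.74. No gene of this list was higher, and its median was -0.15.

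Among the 36 heat shock and chaperone genes measured, 2 (5.56%) were higher, against 1.43% of all genes, and none was lower, with a median of -0.04. Chaperone genes of this kind are switched on by heat shock factors that bind repeats of the pentamer nGAAn. Hspb1, which encodes a small heat shock protein that binds unfolded proteins and actin filaments, had 139 normalized counts in oocyte 7 and 488 in oocyte 31. In the Nlrp5+/- oocytes it had a lowest value of 11.3, a median of 33.1 and a highest of 53.4, and the Nlrp5-/- mean was 9.88-fold higher, a log2 ratio of 3.30. The Nlrp5+/+ SN oocytes had 3.61 to 60.1, and the NSN Nlrp5-/- oocytes 50.8 to 237 against 19.1 to 57.9 in the other Nlrp5+/- oocytes, where the log2 ratio was 2.15 and the ranges overlapped.

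Hspa1b, a stress-inducible Hsp70, had 31.9 and 51.7 normalized counts against a lowest value of 2.11, a median of 8.43 and a highest of 22.6, with a log2 ratio of 1.91. It was also higher outside the SN stage, by 1.73. With the GC trend removed its ratio was 1.58 and the ranges overlapped, and reads may be shared with the near-identical Hspa1a. Hsph1, an Hsp110 nucleotide exchange factor of Hsp70, had 2545 and 2640 against 734 to 2242, and Dnajb1, an Hsp40 co-chaperone, 2064 and 1684 against 753 to 1581. Both lay above the Nlrp5+/- range by less than 2-fold, with log2 ratios of 0.87 and 0.71, as did the Hsp90 co-chaperone gene Fkbp5 with 0.40. Hspa8, the constitutive Hsp70, had 5571 and 8124 against 3301 to 8615 and a log2 ratio of 0.01. Dnajb6, a J-domain protein that keeps polypeptides from aggregating, lay below the range by less than 2-fold, with 1677 and 2957 against 2989 to 3588. The genes Dnajb1, Fkbp5 and Dnajb6 were chosen after their values had been seen.

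The promoters of these genes were searched for the heat shock element, from 250 bases before to 50 bases after the transcription start, to show where the pentamers stand in Hspb1 and Hspa1b, which were higher, and in Hsph1 and Dnajb6, which lay above and below the Nlrp5+/- range by less than 2-fold. A promoter sequence was at hand for 29 of the 36 chaperone genes and for 9807 of the 13162 genes tested, from the RefSeq table of GRCm38.p6. A pair of adjoining pentamers in opposite orientation (GAA, any 2 bases, TTC, or TTC, any 2 bases, GAA) was found in 9 of 29 (31.03%) and in 11.98% of genes tested. A run of 3 adjoining pentamers of alternating orientation, which contains the pair, was in 4 of 29 (13.8%) and in 0.367%. Each form reads as itself or as its alternative on the other strand, so both strands were covered. The following stretches read 5′ to 3′ in the direction of the gene and end before its start, with the letters of matched pairs in capitals.
Hspb1, chr5:135887786-135887845, plus strand: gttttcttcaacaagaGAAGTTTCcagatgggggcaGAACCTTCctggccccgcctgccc
Hspa1b, chr17:34959319-34959358, minus strand: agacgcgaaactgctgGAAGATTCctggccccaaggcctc
Hsph1, chr5:149636346-149636385, minus strand: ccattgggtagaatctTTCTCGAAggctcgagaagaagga
Dnajb6, chr5:29735836-29735880, plus strand: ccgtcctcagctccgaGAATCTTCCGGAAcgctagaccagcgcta
The matches stand 117 and 97 bases before the start in Hspb1, 104 in Hspa1b and 33 in Hsph1. The pairs of Dnajb6, whose log2 ratio was -0.52, run together into 3 pentamers. Hsph1, with a log2 ratio of 0.87, holds such a run after its start, outside the stretch shown, and Hspb1, with 3.30, and Hspa1b hold pairs only. The other 2 genes with such a run, Hspe1 (-0.20) and Chordc1 (-0.45), met neither condition, and no pair was found in the windows of Dnajb1 and Fkbp5. The pair was in 18 of 138 (13.04%) promoters of the genes counted as higher and in 28 of 209 (13.4%) of those counted as lower. A match of letters is a description and not a bound site.

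Zinc finger genes named Zfp, most of which encode DNA-binding proteins with arrays of C2H2 fingers, were lower more often than genes at large. Of 269 measured, 36 (13.4%) were lower and 2 (0.743%) higher, against 2.29% and 1.43%, and the median log2 ratio was -0.29. With the GC trend removed, 26 were lower, 3 higher, and the median was -0.23. With oocyte 7 alone for Nlrp5-/-, 78 were lower and the median was -0.51. Outside the SN stage 3 of 292 were lower, where 0.366% of all genes were, none was higher, and the median was 0.03. Their median transcript GC content was 44.3%.

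Zfp330, which encodes a nucleolar protein, had 43.0 and 25.2 normalized counts in the Nlrp5-/- oocytes and a lowest value of 145, a median of 244 and a highest of 350 in the Nlrp5+/- oocytes, a log2 ratio of -2.79. Zfp410, an activator of the chromatin remodeller gene Chd4, had 55.3 and 4.64 against 137 to 264, a log2 ratio of -2.61. Both genes were lower outside the SN stage too, by -1.24 and -2.05 on the log2 scale. Zfp160 had 33.1 and 98.1 against 202 to 465, with -2.37 at the SN stage and -0.96 outside it. Chromosome 17, which carries clusters of these genes, held 11 of the 36, out of 34 measured there with a median of -1.13, and all 11 remained lower with the GC trend removed. Chromosome 13 held 5 of 21, and chromosome 7, with the most Zfp genes measured, 4 of 63, and these counts were 2 and 3 with the GC trend removed. Low medians were also those of chromosome 4, at -1.19 with 3 of 16 lower, and chromosome 10, at -1.11 with 2 of 5. Each had 1 lower with the GC trend removed. Clustered zinc finger genes resemble each other, so their reads may be shared. Zfp57, which protects imprinted regions from loss of methylation in the embryo and was looked up by name, had 8275 and 9452 against 7115 to 9532.

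Single genes of the cytoskeleton were higher or lower. Tuba3b, an alpha-tubulin, had 1443 and 1333 normalized counts against a lowest value of 176, a median of 448 and a highest of 633 in the Nlrp5+/- oocytes, a log2 ratio of 1.71. The Nlrp5+/+ SN oocytes had 250 to 933, also below both. It was the 1 higher gene among 16 tubulins (6.25%, against 1.43% of all genes), whose median was 0.31. Tpm3, a tropomyosin that stabilises actin filaments, had 45.4 and 48.4 against 153 to 277, a log2 ratio of -2.05, and was the 1 lower gene among 30 actin regulators, a share of 3.33% near the 2.29% of all genes. Outside the SN stage the log2 ratio was 1.84 for Tuba3b, with overlap, and -1.27 for Tpm3, which was lower there as well.

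Of 30 kinesin motors, 3 (10%) were higher and 1 (3.33%) lower, against 1.43% and 2.29% of all genes, and 2 and 1 with the GC trend removed. Kif26b had 140 and 59.7 against 11.97 to 47.4, Kif1c 88.4 and 63.7 against 16.95 to 43.2, and Kif26a 27.0 and 37.1 against 0 to 23.9. Kif3b, a subunit of the kinesin-2 motor, had 14.7 and 14.6 against 49.0 to 151 and was lower, with a log2 ratio of -2.61. Of 27 histone genes, 3 (11.1%) were higher, H4c3 (1.68), H1f1 (1.23) and H2ac1 (1.05), and 1 (3.70%) lower, H4c9 (-1.43), on the log2 scale, beside the same shares of all genes. Once the GC trend was removed, H4c3 alone was higher and H4c9 lower, and the median over the list was 0.13 in place of 0.34.

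Gdf9, an oocyte-secreted factor that acts on granulosa cells, had a log2 ratio of 0.32, and its relative Bmp15 one of -0.09. Of 21 growth factor and receptor genes, 1 (4.76%, against 2.29% of all genes) was lower, the activin receptor gene Acvr2a, with 30.7 and 25.2 against a lowest value of 53.7, a median of 76.3 and a highest of 176. Acvr1, a related receptor with few counts, had 1.23 and 0 against 0.944 to 44.3 and overlapped. Dnmt3l, a cofactor of DNA methylation in the growing oocyte, had a log2 ratio of -0.05, and none of 20 DNA methylation genes and 38 histone modifier genes met both conditions. Neither did any gene of the zona pellucida (7 genes), maternal RNA storage (25), maternal RNA decay (29), meiotic arrest (31), calcium (18), proteasome (35) or ribosomal protein (83) lists.

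**Figure D5:**
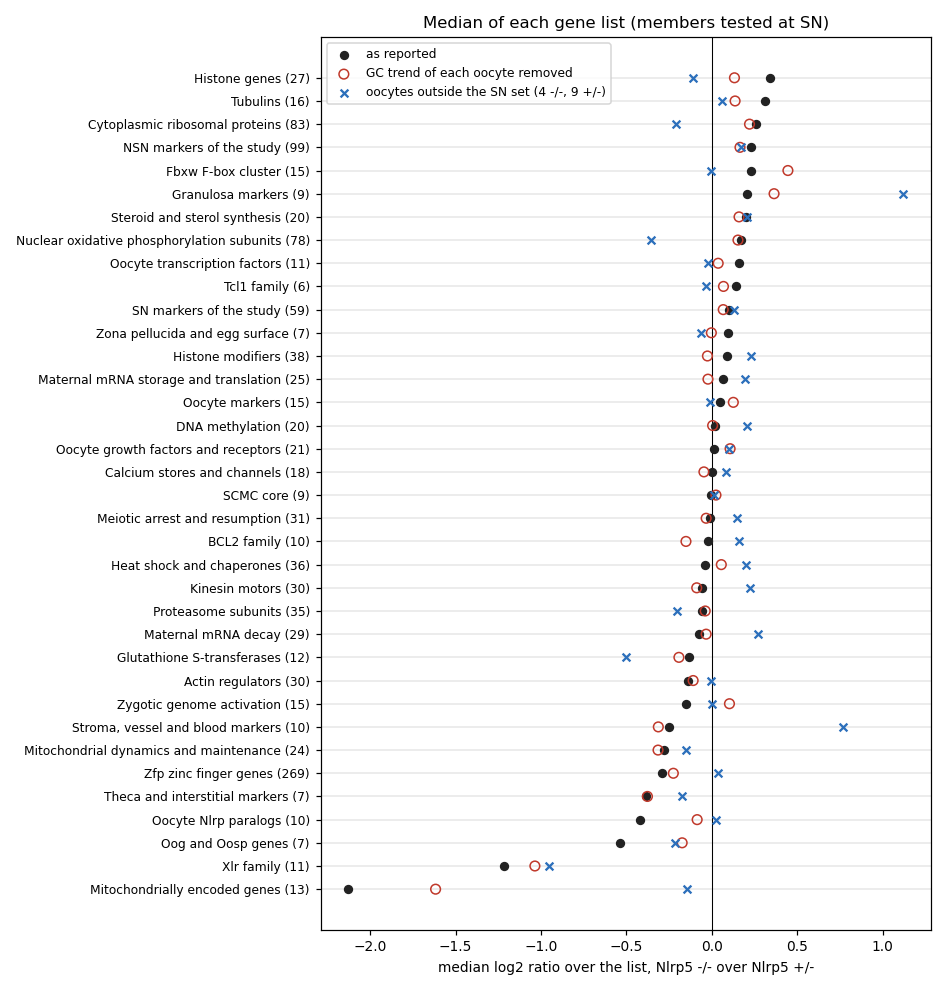
Median log2 ratio of Nlrp5-/- over Nlrp5+/- for each of 36 gene lists (horizontal axis, with the number of genes measured at SN in brackets). Filled circles are SN oocytes, open circles SN oocytes with the GC trend removed, and crosses the 4 Nlrp5-/- against 9 Nlrp5+/- oocytes outside the SN stage. The mitochondrially encoded genes lie at -2.13, -1.62 and -0.15.

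The 12 genes with the largest positive ratios among those with a mean of at least 100 normalized counts and no overlap had log2 ratios of 1.14 to 1.71. After Tuba3b came Tmem159, which encodes a lipid droplet assembly factor, with 225 and 293 normalized counts against 24.8 to 138. Gli2, a transcription factor of the Hedgehog pathway, had 230 and 342 against a lowest value of 13.9, a median of 85.95 and a highest of 161. Mrpl43, a protein of the mitochondrial ribosome, had 278 and 204 against 44.9 to 129. Bop1, needed to make the large ribosomal subunit, had 354 and 188 against 54.6 to 137. Gli2 was also higher outside the SN stage, with a log2 ratio of 1.28. Dohh, which completes the hypusine modification of eIF5A, had a log2 ratio of 1.29, and Gm48551, which overlaps it on the same strand and may share its reads, had 1.28. Gm13180 (1.28), Sft2d2 (1.21), AU022751 (1.19), Spint2 (1.18) and Galnt6 (1.14) completed the 12.

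Of the 12 with the largest negative ratios, -4.79 to -2.05, the genes not yet described were Stx7, an endosomal syntaxin, Smim19, and Pggt1b, a subunit of geranylgeranyl transferase. Stx7 had 17.2 and 42.4 normalized counts against 68.95 to 244. Smim19 had 28.2 and 44.4 against 117 to 216, and Pggt1b 43.0 and 33.8 against 86.4 to 259. All 3 kept both conditions with the GC trend removed, at -2.10, -2.28 and -1.70 on the log2 scale.

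The oocytes outside the SN stage share no oocyte with the SN comparison. They do share index sets with it, oocytes 29 and 30 with 31, 45 and 48 with 46 and 47, and 53, 54 and 56 with 55, and whether they share mice is not in the labels. The 4 Nlrp5-/- oocytes are NSN, but the 9 Nlrp5+/- oocytes are placed only as not SN, so more than 1 stage may be among them. There, 26 of 13656 genes (0.19%) were higher and 50 (0.366%) lower under the same 2 conditions, now with 4 and 9 oocytes, and without regard to the fold 68 (0.498%) and 93 (0.681%) did not overlap. Of the 188 genes higher at SN, 178 were measured there, their median log2 ratio was 0.37, and 135 had the same sign. Of the 301 lower genes, 287 were measured, with a median of -0.42, and 213 had the same sign. The genes that met both conditions in both comparisons numbered 4 in the higher direction, 2.25% of the 178 and 15.4% of the 26, and 26 in the lower direction, 9.06% of the 287 and 52.0% of the 50. Across 12877 genes the Pearson correlation of the 2 sets of log2 ratios was 0.32, with genes not being independent of each other.

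The 4 genes higher in both comparisons were Gli2, Hspa1b, Pde2a and Gm45837, and the last pair overlap on the same strand, with almost identical counts. Pde2a, a phosphodiesterase of cAMP and cGMP, had 28.2 and 179 normalized counts at SN against a lowest value of 0, a median of 2.83 and a highest of 10.9. Outside the SN stage it had 90.7 to 138 in Nlrp5-/- against 0 to 31.1. The Nlrp5+/+ SN oocytes had 0 to 34.5, a range that reached above oocyte 7, so that at SN the value of oocyte 7 was not outside the spread of that genotype. Genes named for meeting the conditions in both comparisons, here and below, were chosen after their values had been seen.

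The 26 genes lower in both comparisons included Nlrp5, Dppa4, Zfp330, Zfp410, Tpm3, Smim19, Xlr5a and Xlr5b. Others were enzymes, among them Idh3b, a subunit of the isocitrate dehydrogenase of the citric acid cycle, with 93.3 and 65.6 normalized counts against 164 to 227. Mtap, which salvages methionine and adenine, had 140 and 76.3 against 224 to 422. Blzf1, a golgin of the Golgi apparatus, had 101 and 135 against a lowest value of 325, a median of 349 and a highest of 438, with log2 ratios of -1.65 at SN and -1.78 outside it.

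Further genes among the 26 have unlike roles. Gtf2a2, a subunit of the general transcription factor TFIIA, had 171 and 349 normalized counts against 551 to 1078, and Clns1a, which loads Sm proteins during spliceosome assembly, 263 and 243 against 388 to 714. Rnaseh2b, a subunit of ribonuclease H2, had 22.1 and 23.9 against 50.6 to 109, and Faap20, of the Fanconi anaemia core complex, 22.1 and 18.6 against 34.7 to 138. Timm8a1, a chaperone of mitochondrial protein import, had 20.9 and 25.9 against 63.3 to 109, and Slc7a9, an amino acid transporter, 54.02 and 52.4 against 84.9 to 187. In none of these did a Nlrp5-/- SN oocyte reach the lowest Nlrp5+/- oocyte. Of the remaining genes, Txndc12, a thioredoxin-like protein of the endoplasmic reticulum, had a log2 ratio of -1.59 and Fam120b one of -1.70.

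By whole profiles, the correlation between oocytes 7 and 31 lay below the median among Nlrp5+/- pairs. Across genes, Pearson correlations of log2 levels were 0.92 between oocytes 7 and 31, 0.89 to 0.95 among the 21 Nlrp5+/- pairs with a median of 0.94, and 0.85 to 0.94 among the 14 pairs of unlike genotype with a median of 0.92. The first principal component took 25.1% of the variance and placed oocyte 7 at 71.7, oocyte 31 at 16.8 and the Nlrp5+/- oocytes at -78.6 (oocyte 55) to 13.3. With the GC trend removed, it was the second component, at 18.5%, that set both Nlrp5-/- oocytes apart, at 74.0 and 25.5 against -31.1 to -3.06.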

How the data were processed

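Single germinal vesicle oocytes of 3-week-old mice were sequenced by the authors after physical separation of RNA and DNA. The authors deposited a table of counts of reads per gene for each of 33 oocytes, without normalization, after trimming with Trim Galore and alignment with HISAT2. The labels and column names give GRCm38, and gene coordinates are printed as the table gives them, whereas the methods name GRCm39. Whether counting used strand is not given in the sources used here. Tables of genes called with DESeq2 by the authors, which hold fold changes and p-values, were not used. Of 35373 entries, 52 repeats were left out, leaving 35321 genes.

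Counts were divided by median-of-ratios size factors over the 9 SN oocytes and averaged with equal weight, and log2 ratios were taken after adding 1 to each mean. A mean normalized count of at least 10 was required. Other oocytes were put on the same scale by their median ratio to the 9. The main settings kept oocytes as cells of 1 sample per genotype, so no test was made, and the steps were tested on simulated data. Genes were called higher or lower when the means differed at least 2-fold and both Nlrp5-/- oocytes lay outside the range of the 7 Nlrp5+/- oocytes.

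Members and gene lists were chosen with earlier results of these data known. Genes named are Nlrp5, the SCMC core, genes the study names for these RNAs, the 12 highest and 12 lowest ratios without overlap at a mean of at least 100, and in each list the called members or, where fewer than 4, the largest ratios up to 4. GC content was taken by gene ID from the longest protein-coding GENCODE vM39 transcript, and its trend was removed over 20 bins of GC. Alternatives were total-count and TMM scaling, medians, pooled sums, a pseudocount of 5, filters of none and at least 100, all stages together, leaving out each oocyte, and, chosen after seeing the data, removal of the GC trend and leaving out oocytes 7 and 55. The software was matplotlib 3.10.9 for figures and scipy 1.17.1, pandas 2.3.3 and numpy 2.4.6 under Python 3.11.15.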

Additional observations from a re-analysis of the deposited data

Results flagged for a closer look

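Among 69 sets of 7 Nlrp5+/- values, 4 held an oocyte far from the others by Dixon's gap test, and chance alone marks about 1 in 20 sets. Oocyte 46 stood above the other Nlrp5+/- oocytes in 3 mitochondrially encoded genes, with 595 normalized counts of mt-Co3, 81.2 of mt-Nd4l and 4220 of mt-Nd5. With medians in place of means their log2 ratios were -2.80, -2.04 and -1.42. Oocyte 55 stood above the others in Bmp15, with 38561 normalized counts, a gene that did not differ by 2-fold between the genotypes. Of 60 genes compared between the SN oocytes and those outside the SN stage, none had opposite directions in every Nlrp5-/- oocyte of the 2 sets.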

How the results depend on the processing

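Of 187 recomputed values of the 16 main results, 163 stayed within a limit of movement. The limit was 1 SD between oocytes, 1.5 times for counts, and for the first principal component's share its distance from that of the second. Differences close to 0 changed sign within that limit, the theca and interstitial sum from 9.72 to -6.76 CPM with markers under 50 counts only, and the heat shock median from -0.04 to 0.09 with pooled sums, 0.01 without a filter, 0.12 with all stages together, 0.05 with the GC trend removed and 0.11 without oocytes 7 and 55. Of 1513 values of the 89 named genes that met both conditions, 1316 stayed within that limit and 2 reversed, Polg2 to 0.30 and Zfp12 to 0.16 with all stages together. With all stages together, 4 genes were higher and 10 lower, 0 mitochondrially encoded and 0 Zfp genes were lower, and the medians of those lists were -0.94 and -0.053. Without a filter 428 genes were higher, and with at least 100 counts 26 were higher and 135 lower, 21 of them Zfp genes. With the GC trend removed the mitochondrial median was -1.62. Without oocytes 7 and 55 there were 521 and 604 genes and the median was -1.68.

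Leaving out each oocyte gave 207 to 710 higher genes, 322 to 1434 lower genes, 9 to 12 lower mitochondrial genes with a median of -3.35 to -1.68, and 33 to 78 lower Zfp genes with a median of -0.51 to -0.26. The heat shock median went from -0.32 to 0.11 and the Xlr median from -1.92 to -0.91. Without oocyte 7 there were 442 and 563 genes, and without oocyte 31, 710 and 1434. With 1 Nlrp5-/- oocyte, the condition on the range applies to that oocyte only. This holds for both settings, and the difference between them was not tested. The Nlrp5 log2 ratio stayed between -1.79 and -1.64. Precision is limited by 2 Nlrp5-/- oocytes and by amplified counts without molecular identifiers. No paired analysis was possible because the labels give oocyte numbers, which pair no oocytes across genotypes, and no test was made.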

Other observations

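The cytoplasmic ribosomal protein and nuclear oxidative phosphorylation lists had medians of opposite sign at SN and in the oocytes outside the SN stage. Of 83 cytoplasmic ribosomal protein genes, 71 had a log2 ratio above 0 at SN, with a median of 0.26, and the median outside the SN stage was -0.21. Against the 3 index sets of Nlrp5+/- oocytes the SN median was 0.52, -0.01 and 0.22, and the median deviation was 0.48 in oocyte 7, above the Nlrp5+/- range of -0.89 to 0.42, and 0.20 in oocyte 31, inside it. Rpl17 had 5509 and 4462 normalized counts in oocytes 7 and 31 against 2202 to 3138, and Rpl23a 713 and 528 against 204 to 470. The 78 nuclear subunits of oxidative phosphorylation had medians of 0.17 and -0.36. Atp5g3, a subunit of the ATP synthase ring, had 233 and 170 against 70.3 to 138. None of these 3 genes reached 2-fold. The 7 Oog and Oosp genes, which are expressed in oocytes, had a median of -0.54, and -0.17 with the GC trend removed.

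Among the 20 granulosa markers, none of the 9 measured at 10 or more counts met both conditions. Inha, the alpha subunit of inhibin, had 433 normalized counts in oocyte 7 and 53.05 in oocyte 31 against 8.49 to 85.9 in the Nlrp5+/- oocytes, and Hsd17b1, a granulosa enzyme of oestradiol synthesis, had 99.4 and 4.64 against 0 to 13.6. Oocyte 7 was also above all Nlrp5+/- oocytes in Gja1, Fst, Amhr2, Amh and Nap1l5, with 101, 52.8, 35.6, 13.5 and 14.7 normalized counts, and oocyte 31 in none of these. Both oocytes were above them in Grem1, with 3.68 and 3.32 against 0 in each Nlrp5+/- oocyte. Oocyte 31 was above them in Inhbb, at 9.95 against 0 to 8.95, and below them in Serpine2, at 1396 against 1418 to 2098. Oocyte 7 was below them in Cyp19a1, the aromatase gene, at 285 against 341 to 604, and in Kitl, at 18.4 against 47.4 to 195. Upk3b, a marker of the ovarian surface, was the 1 marker of another ovarian cell type that met both conditions, with 68.8 and 34.5 against 3.52 to 24.3. The part of somatic RNA in other differences was not tested.

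By chromosome, 26 of the 188 higher genes (13.8%) lay on chromosome 7, which holds 7.62% of genes tested, and of the 301 lower genes 22 (7.31%) lay on chromosome 13, 21 (6.98%) on chromosome 17 and 15 (4.98%) on the X chromosome, which hold 4.14%, 4.69% and 3.12% of genes tested. Within 5 Mb of Nlrp5, 4 of 126 genes were higher and 2 lower, beside 1.43% and 2.29% of all genes, with a median log2 ratio of 0.21. Oocyte 15, a Nlrp5-/- oocyte with no stage, had a mitochondrially encoded share of 0.0175% and a granulosa sum of 1771 CPM.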
